A study of Homo sapiens with 8 samples.

Results

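Directing Cas9 to EZH2 with the guide RNA sgEZH2-1 lowered the EZH2 transcript and changed 2726 of 13124 tested genes (20.8%) in HSC-5, a line established from a squamous cell carcinoma of human skin. The calls in sterol and fatty acid synthesis, among hypoxia-responsive genes and in aldehyde metabolism were all or mostly falls. Those among mitotic regulators, keratins, kallikreins, YAP and TEAD targets and ADAM proteases were all or mostly rises. The comparison took 5 of the 8 RNA-seq libraries of the series: 3 with sgEZH2-1 and 2 controls with the empty vector. The members are these libraries, chosen by their group name, and every gene in the table was considered. All groups, controls included, were HSC-5 cells that stably carried Cas9 and were selected with G418, so the groups differ by the guide alone as far as the labels say. The remaining 3 libraries carried a second guide, sgEZH2-2, and entered the shared estimate of spread and a direct comparison of the guides. The labels name no cloning of single cells, so a level may be a mean over cells with and without an edited gene. Fewer cells of a kind and less RNA per cell cannot be told apart in such bulk samples. The authors left out 1 further control because it clustered apart from the rest, which may understate the spread of the controls. Whether replicates were separate cultures is not stated in the labels, and p-values here measure only the spread between the libraries, part or all of which may be technical.

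EZH2 is the methyltransferase of the Polycomb complex PRC2 and places methyl groups on lysine 27 of histone H3. Genes that carry this mark are kept silent or low, and in epidermal keratinocytes the complex holds back developmental and differentiation genes. Genes that rise after loss of the complex therefore often start near zero. Cholesterol and fatty acid enzymes are set by the SREBP factors, hypoxia genes by the HIF factors and mitotic genes by the MuvB complexes, each through short DNA motifs near the start of transcription.

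The controls held 14.3 M and 15.5 M counts, and the sgEZH2-1 libraries 12.9 M, 14.7 M and 14.3 M. Mitochondrially encoded transcripts took 1.53% to 1.71% of the counts in these 5 libraries. Levels are given in CPM (counts per library size, corrected with the TMM factors of edgeR and set to a common depth), in the order of the libraries within each group. A gene is said to have risen or fallen where its adjusted p was at most 0.05 in the quasi-likelihood F test of edgeR with Benjamini-Hochberg adjustment over all 13124 genes. Every adjusted p comes from that test unless another tool is named.

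EZH2 (chr7:148807383-148884321, minus strand, GRCh38) stood at 82.7 and 84.1 CPM in the controls and at 56.4, 56.3 and 48.03 CPM with sgEZH2-1. Every sgEZH2-1 library lay below both controls, as in 24.2% of all tested genes. The mean fell from 83.4 ± 0.976 (SD, n = 2) to 53.6 ± 4.80 (SD, n = 3) CPM, which is 64.2% of control, with a log2 fold change of -0.64 ± 0.08 (SE; adjusted p = 0.000529). A transcript level does not count edited alleles. With sgEZH2-2 none of the 13 PRC2 subunits tested, EZH2 included, was called against control (6.18% of all tested genes rose and 2.5% fell). In the direct comparison of the guides 1 subunit was higher with sgEZH2-1 and 3 were lower (10.4% and 11.5% of all). With sgEZH2-1 against control, 1 of the 13 rose and 3 fell, EZH2 included (11.3% and 9.51% of all tested genes did). RBBP4 and RBBP7, histone chaperones of this and other complexes, were the other falls. RBBP4 went from 174 and 182 CPM to 142, 145 and 126 CPM (-0.37 ± 0.07 (SE; adjusted p = 0.00363)) and RBBP7 from 457 and 450.2 CPM to 406, 390.2 and 381 CPM (-0.21 ± 0.05 (SE; adjusted p = 0.0120)), a call that was lost without the first control (-0.19 (adjusted p = 0.0960)) and without the second sgEZH2-1 library (-0.19 (adjusted p = 0.0679)). EED, the PRC2 subunit that binds the methylated histone tail, went from 52.8 and 55.9 CPM to 69.1, 65.9 and 70.2 CPM and rose (log2 fold change 0.33 ± 0.06 (SE; adjusted p = 0.00538)), a call that was lost without the first control (0.30 (adjusted p = 0.0512)). SUZ12, the scaffold of the complex, stood at 76.5 and 96.2 CPM in the controls and 105, 102 and 104 CPM with the guide, and did not pass the test (0.26 ± 0.09 (SE; adjusted p = 0.0602)).

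The changes were unequal in kind between the directions. With sgEZH2-1, 1478 genes rose (11.3% of those tested) and 1248 fell (9.51%). The rises had a median log2 fold change of 0.64 and a median control level of 13.3 CPM, whereas the falls had a median of -0.39 and a median control level of 54.1 CPM. The median over all tested genes was -0.01. Among the rises, 302 genes (20.4%) lay below 1 CPM in the control, and among the falls 2 genes did. A change of at least 2-fold was reached by 532 rises (4.05% of tested genes) and 72 falls (0.549%). The 532 large rises had a median control level of 0.741 CPM. Large rises were mostly of transcripts that were close to absent in the control, and the falls were mostly modest changes of well expressed transcripts. Part of this follows from the low-count filter, which kept a gene near absent in the controls only where guide libraries held counts. A fall from such a level could hardly be called. Of all tested genes 1034 (7.88%) lay below 1 CPM in the control. Without the first control library 844 genes rose and 529 fell, and without the second sgEZH2-1 library 1111 rose and 693 fell.

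Changes are ranked here among called genes with a mean normalized count of at least 100 and every guide library on one side of both controls. The largest rise among those with counts in both controls was of NEO1 (chr15:73051710-73305206, plus strand), which encodes neogenin, a receptor for netrins and repulsive guidance molecules. NEO1 was counted at 2.70 and 2.28 CPM in the controls and 63.3, 62.3 and 54.8 CPM with sgEZH2-1, a 24.1-fold rise of the mean (log2 fold change 4.59 ± 0.13 (SE; adjusted p = 4.71e-08)). With sgEZH2-2 it stood at 40.7, 39.8 and 43.4 CPM, below every sgEZH2-1 library. LRP12, a low-density lipoprotein receptor relative, went from 0.994 and 1.37 CPM to 26.1, 23.8 and 26.96 CPM (4.42 ± 0.18 (SE; adjusted p = 8.78e-07)). PPM1H, a serine/threonine phosphatase, went from 1.28 and 0.783 CPM to 20.2, 19.8 and 18.6 CPM (4.25 ± 0.20 (SE; adjusted p = 1.40e-06)). RNF144A, an E3 ubiquitin ligase, went from 0.781 and 0.848 CPM to 11.3, 11.4 and 10.9 CPM (3.76 ± 0.18 (SE; adjusted p = 1.41e-06)). By the conditions of the ranking all guide libraries lay above both controls in these genes, as in 23.7% of all tested genes. CCND2, which encodes cyclin D2, rose from 4.55 and 3.0 CPM to 29.4, 32.4 and 30.5 CPM (3.03 ± 0.14 (SE; adjusted p = 1.41e-06)). C14orf132 rose by 3.52 on the log2 scale, and RSAD2, which encodes the antiviral enzyme viperin, by 2.75.

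Others of the 20 largest rises are given next. ADCY1, an adenylyl cyclase, went from 1.85 and 1.96 CPM to 11.2, 13.2 and 13.9 CPM (2.74 ± 0.19 (SE; adjusted p = 8.44e-06)). GNAO1, a G protein alpha subunit, rose by 2.64 on the log2 scale, the beta subunit GNB4 by 2.55, and PRKAR2B, a regulatory subunit of protein kinase A, by 2.52. Of 20 tested cyclic nucleotide phosphodiesterases and cyclases 4 rose (20%) and 0 fell. EPB41L2 (a protein 4.1 relative that links membrane and spectrin) went from 12.1 and 14.7 CPM to 85.6, 78.8 and 79.2 CPM (2.59 ± 0.09 (SE; adjusted p = 4.47e-07)). MAP1B, a microtubule-associated protein best known from neurons, went from 6.39 and 6.13 CPM to 34.6, 35.7 and 29.1 CPM (2.40 ± 0.14 (SE; adjusted p = 3.04e-06)). The profilin PFN2 rose by 2.33, the microtubule end-binding protein MAPRE2 by 2.31, and TMOD1, a cap of actin filaments, by 2.46. TMOD1 shares 45% of its exonic length with TSTD2 and is uncertain, since the strand setting of the counting is not given in the sources used here. The zinc finger gene JAZF1 rose by 2.33 on the log2 scale.

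**Figure D1:**
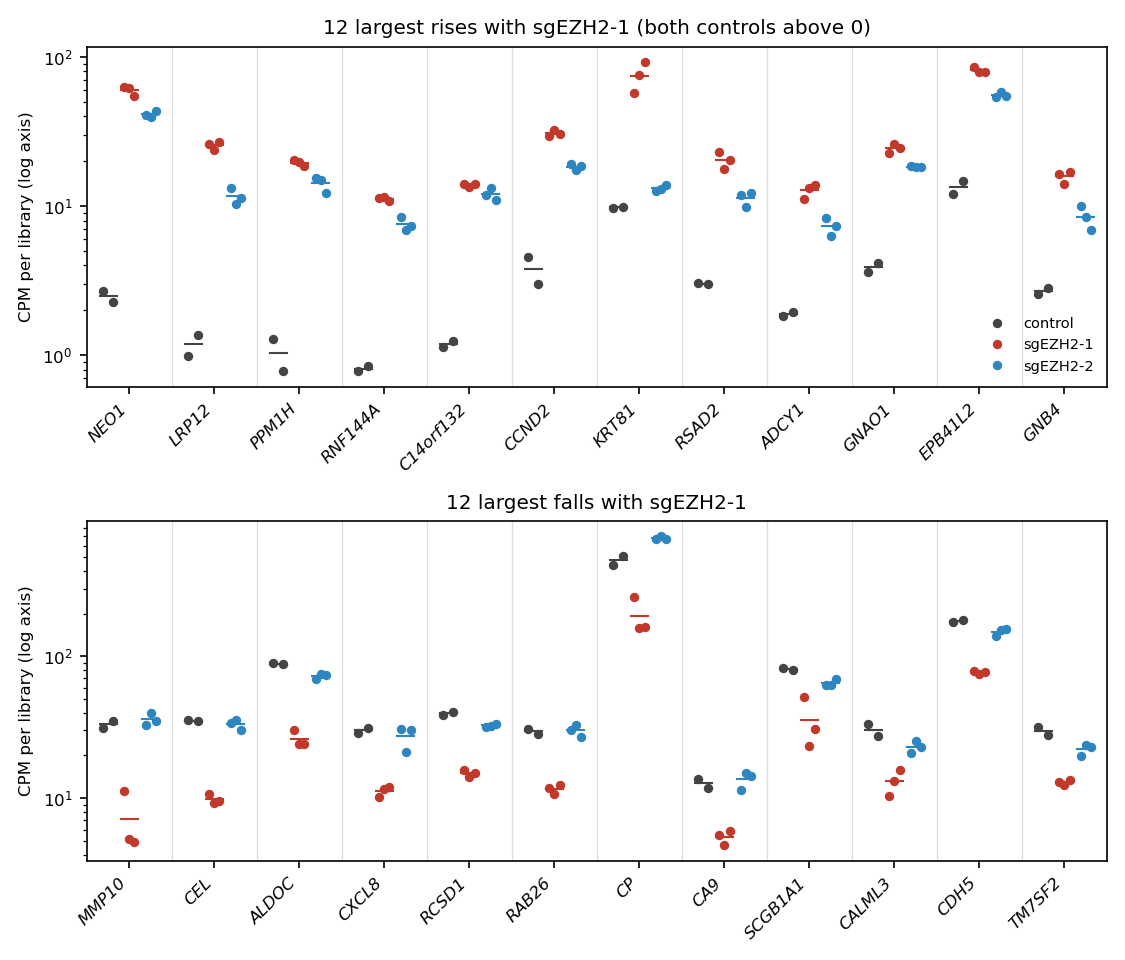
Level in CPM on a log axis of the 12 largest rises (both controls above 0) and the 12 largest falls with sgEZH2-1, 1 point per library and a bar at each group mean, with control in grey, sgEZH2-1 in red and sgEZH2-2 in blue. NEO1 sits at 54.8 to 63.3 CPM with sgEZH2-1 against 2.28 and 2.70 CPM in the controls, and for most of the falls the sgEZH2-2 libraries lie near the controls.

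Of 35 tested genes with no count in either control, which passed the low-count filter only through guide libraries, 27 rose. The highest of them was ZDHHC2, a palmitoyltransferase, at 13.4, 11.6 and 14.5 CPM with sgEZH2-1, which is at least 129-fold higher against a floor of 3 counts over both controls (adjusted p = 2.98e-06). The nucleosome-binding gene HMGN5 stood at 3.17, 2.19 and 1.75 CPM (at least 23.2-fold higher), FXYD6, a regulator of the sodium pump, at 3.17, 1.64 and 2.24 CPM (at least 23.04-fold), and CADPS2, which acts in vesicle release, at 1.47, 1.78 and 1.89 CPM (at least 16.8-fold). These bounds cover counting error only. UPK3BL1 was called with 9.11, 6.29 and 0 CPM, but the third guide library held no count, the gene shares 86.1% of its exonic length with a neighbour, and the call was lost without either control, among other single libraries.

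The largest fall under the same conditions was of the secreted protease gene MMP10. MMP10 (stromelysin 2, chr11:102770503-102780628, minus strand) stood at 31.04 and 35.1 CPM in the controls and at 11.3, 5.13 and 4.90 CPM with sgEZH2-1 (log2 fold change -2.24 ± 0.25 (SE; adjusted p = 0.000228)). CEL, which encodes carboxyl ester lipase, went from 35.5 and 35.02 CPM to 10.7, 9.30 and 9.52 CPM (-1.84 ± 0.10 (SE; adjusted p = 1.83e-06)), and ALDOC, a glycolytic aldolase, from 89.3 and 88.4 CPM to 30.4, 24.2 and 24.2 CPM (-1.76 ± 0.09 (SE; adjusted p = 2.12e-06)). CEL has a near-identical pseudogene, so its count is uncertain. CXCL8 (interleukin 8) fell from 28.98 and 31.04 CPM to 10.2, 11.6 and 12.04 CPM (-1.41 ± 0.15 (SE; adjusted p = 0.000168)). By the conditions of the ranking all guide libraries lay below both controls in these genes, as in 24.2% of all tested genes. RAB26, a small GTPase of secretory granules, fell by 1.34 on the log2 scale, the tissue plasminogen activator PLAT by 1.18, and SPP1 (osteopontin) by 1.17. CP, which encodes the copper oxidase ceruloplasmin, fell from 441 and 507 CPM to 261, 158 and 161 CPM (-1.30 ± 0.17 (SE; adjusted p = 0.000633)). In MMP10, CP and SCGB1A1 (uteroglobin, 82.1 and 80.6 CPM against 52.1, 23.3 and 30.7 CPM) the first sgEZH2-1 library lay nearest to the controls. The fall of SCGB1A1 was -1.21 ± 0.23 (SE; adjusted p = 0.00513). CP shares 19.4% of its exonic length with HPS3 and is uncertain for that reason.

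CDH5, which encodes the cadherin of endothelial junctions, was present at 173 and 180.0 CPM in the control cells and fell to 79.2, 74.6 and 78.00 CPM (-1.19 ± 0.06 (SE; adjusted p = 1.83e-06)). It was the only 1 of 3 tested endothelial markers that was called, and the endothelial receptor KDR had no count in any of the 8 libraries. The summed level of the 7 endothelial markers was 177 and 184 CPM in the controls and 76.6 to 81.9 CPM with the guide, nearly all of it CDH5. Markers of other cells that a skin line could hold were also counted. None was called (0 of 1 tested fibroblast, 0 of 2 leukocyte and 0 of 3 melanocyte markers). COL1A2, CD3E and TYR were at 0 in every library, but other members of each list were detected. The melanocyte markers summed to 28.9 and 30.8 CPM in the controls and 30.6 to 33.1 CPM with sgEZH2-1. In the same order the fibroblast markers summed to 7.24 and 6.13 and 5.02 to 8.96 CPM. The leukocyte markers summed to 2.63 and 2.15 and 2.38 to 3.71 CPM. All 15 squamous keratinocyte markers were detected, with a sum of 4804 and 4680 CPM in the controls and 4047 to 4718 CPM with sgEZH2-1.

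The largest rises in mean CPM were of KRT8 and KRT18, the keratin pair of simple epithelia. KRT18 went from 1022 and 877 CPM to 1307, 1409 and 1382 CPM (0.53 ± 0.07 (SE; adjusted p = 0.000473)). KRT8 went from 1548 and 1331 CPM to 1701, 1938 and 2024 CPM (0.39 ± 0.08 (SE; adjusted p = 0.00762)), a call that was lost without the second control (0.29 (adjusted p = 0.0599)). KRT19, another keratin of simple epithelia, fell from 6.46 and 6.46 CPM to 3.01, 3.63 and 3.78 CPM (-0.89 ± 0.18 (SE; adjusted p = 0.00653)), so that 2 of 5 simple epithelium markers rose and 1 fell (KRT19 was chosen after its values were seen). CD24, a surface glycoprotein, went from 346 and 418 CPM to 696, 661 and 723 CPM (0.86 ± 0.07 (SE; adjusted p = 3.56e-05)), and PLAU, the urokinase plasminogen activator, from 297 and 280.4 CPM to 542, 553 and 556 CPM (0.93 ± 0.05 (SE; adjusted p = 3.04e-06)). PLAU thus rose while the other plasminogen activator, PLAT, fell. ASS1, the arginine-synthesis enzyme argininosuccinate synthase, rose by 0.50 on the log2 scale and ANXA1, a phospholipid-binding annexin, by 0.35. The largest fall in amount was of SCD, the stearoyl-CoA desaturase, from 3477 and 3549.7 CPM to 1814, 1561 and 1506 CPM (-1.11 ± 0.07 (SE; adjusted p = 4.96e-06)). KRT15, a keratin of basal cells, fell from 3821 and 3638 CPM to 2872, 2874 and 3001 CPM (-0.36 ± 0.04 (SE; adjusted p = 0.000276)). PGD, of the pentose phosphate pathway, fell by 0.48 on the log2 scale, and AKR1C2, an aldo-keto reductase, by 0.47. The fall of ALDOA (-0.42 ± 0.09 (SE; adjusted p = 0.00633)) was lost without the first control (-0.35 (adjusted p = 0.0654)), as was that of the transketolase TKT (-0.27 (adjusted p = 0.161)), and ALDOA shares 42.3% of its exonic length with another gene.

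Gene families were described by how many tested members were called, read against the 11.3% of all genes that rose and the 9.51% that fell. Of 120 lists, 61 had a share of rises or falls of at least 2 times that background (with at least 6 tested members). No test was made on a list as a whole.

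Sterol synthesis had the highest share of calls in one direction among the lists with at least 6 tested members. Of 25 tested genes 22 fell and 0 rose, with a median log2 fold change of -0.49, and 9 fell with sgEZH2-2 (background 2.5%). LSS (lanosterol synthase) went from 346 and 321 CPM to 167, 178 and 186 CPM (-0.91 ± 0.07 (SE; adjusted p = 1.27e-05)), and TM7SF2, a sterol reductase, from 31.5 and 27.7 CPM to 13.1, 12.5 and 13.4 CPM (-1.19 ± 0.10 (SE; adjusted p = 3.71e-05)). In the direct comparison of the guides 19 of the 25 genes were lower with sgEZH2-1 (background 11.5%) and 0 were higher. Of 18 fatty acid synthesis genes 11 fell with sgEZH2-1, and 1 fell and 1 rose with sgEZH2-2. ACLY, which makes cytosolic acetyl-CoA, fell by 0.64 on the log2 scale and ACSS2, which makes it from acetate, by 0.86. The fall of FASN, the fatty acid synthase, from 1119.9 and 876 CPM to 418, 593 and 618 CPM (-0.88 ± 0.17 (SE; adjusted p = 0.00482)) was lost without the first control (-0.69 (adjusted p = 0.0571)).

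Other lipid and detoxification lists differed in direction. Of 22 cytochromes P450 5 rose and 5 fell (22.7% each), and of 26 NRF2 targets 7 rose and 9 fell. Of 16 genes with apolipoprotein-like symbols 5 rose and 1 fell. The rises of APOL2, APOL3 and APOLD1 were lost without the first sgEZH2-1 library, among others, and that of APOOL without the first control. Of 25 genes of the epidermal lipid barrier and ceramides 7 rose and 3 fell. Falls prevailed in the lists that follow. Of 35 ABC transporters 9 fell (25.7%) and 3 rose. ABCG1, a cholesterol exporter, fell from 11.2 and 8.28 CPM to 4.71, 4.24 and 3.85 CPM (-1.19 ± 0.16 (SE; adjusted p = 0.000597)), and ABCA13 from 17.97 and 19.8 CPM to 9.65, 9.65 and 7.84 CPM (-1.06 ± 0.11 (SE; adjusted p = 0.000126)). ABCG2, a drug exporter, fell by 0.55 on the log2 scale with sgEZH2-1 and by 0.86 with sgEZH2-2, and was higher with sgEZH2-1 than with sgEZH2-2 (0.31 ± 0.09 (SE; adjusted p = 0.0292)). Of 26 phospholipases 6 fell and 2 rose. The triglyceride lipase PNPLA3 fell by 0.83 and PLD1, a phospholipase D, by 0.61, while the signalling enzyme PLCG2 rose from 3.69 and 3.26 CPM to 12.7, 9.99 and 10.2 CPM (1.65 ± 0.30 (SE; adjusted p = 0.00328)). Of 24 aldehyde dehydrogenases and aldo-keto reductases 11 fell (45.8%) and 2 rose. ALDH2, the mitochondrial acetaldehyde enzyme, fell from 61.1 and 58.4 CPM to 44.5, 39.8 and 44.04 CPM (-0.48 ± 0.07 (SE; adjusted p = 0.00137)). The retinal dehydrogenase ALDH1A3 went the other way, from 129 and 131 CPM to 223, 220.2 and 224 CPM (0.77 ± 0.06 (SE; adjusted p = 1.27e-05)), and so did AKR1B10 (0.49 ± 0.06 (SE; adjusted p = 0.000381)). AKR1C2 and AKR1C3 fell by 0.47 and 0.46, and since the AKR1C genes are near-identical their separate values are uncertain.

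Of 14 glutathione transferases and peroxidases 5 fell and 0 rose. GPX2, a peroxidase of epithelia, went from 234 and 236 CPM to 197, 182 and 178 CPM (-0.34 ± 0.06 (SE; adjusted p = 0.00314)), and GSTK1 from 92.04 and 89.6 CPM to 67.5, 64.4 and 69.8 CPM (-0.43 ± 0.07 (SE; adjusted p = 0.00123)). The fall of GPX4, which removes lipid peroxides (-0.39 ± 0.08 (SE; adjusted p = 0.00537)), was lost without the first control (-0.31 (adjusted p = 0.0604)). Of 42 lysosomal genes 9 fell (21.4%) and 5 rose (11.9%). PSAP, the saposin precursor, fell from 1079.7 and 1043 CPM to 851, 829 and 829 CPM (-0.34 ± 0.05 (SE; adjusted p = 0.000737)) and LIPA, the acid lipase, from 173 and 203 CPM to 149, 134 and 139 CPM (-0.42 ± 0.08 (SE; adjusted p = 0.00327)). IDS, the iduronate sulfatase, rose from 72.9 and 76.9 CPM to 129, 127 and 128 CPM (0.77 ± 0.06 (SE; adjusted p = 2.03e-05)).

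Calls among endoplasmic reticulum chaperones were small and depended on the controls. Of 23 genes of the unfolded protein response 8 fell (34.8%) and 1 rose, against 0 called either way with sgEZH2-2. PDIA4, a disulfide isomerase, went from 446 and 449 CPM to 362, 376 and 378 CPM (-0.27 ± 0.04 (SE; adjusted p = 0.00210)). The central chaperone HSPA5 went from 862 and 859.7 CPM to 746, 788 and 718 CPM (-0.20 ± 0.05 (SE; adjusted p = 0.0217)). Its call was lost without either control or the third sgEZH2-1 library, and those of CALR (-0.22 ± 0.05 (SE; adjusted p = 0.00689)) and MANF (-0.30 ± 0.06 (SE; adjusted p = 0.00700)) without the first control. With the first control left out 4 of the 23 genes fell (3.97% of all tested genes did), and with the second left out 1 fell (7.10% of all), a share below that of all genes.

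The calls among hypoxia-responsive genes outside glycolysis were mostly falls. Of 24 genes 12 fell against control and 1 rose, and 14 were lower and 0 higher than with sgEZH2-2. With sgEZH2-2, 1 of the 24 fell and 3 rose (background 6.18%). The core of the HIF response element is ACGTG, and the start regions of 2 of these genes that hold it are shown with their values. Each sequence is the RefSeq promoter window of GRCh38.p14, 300 bases around the annotated start, with the element on either strand in capitals (BNIP3 at chr10:131981874-131982173, minus strand, and DDIT4 at chr10:72273674-72273973, plus strand).
BNIP3: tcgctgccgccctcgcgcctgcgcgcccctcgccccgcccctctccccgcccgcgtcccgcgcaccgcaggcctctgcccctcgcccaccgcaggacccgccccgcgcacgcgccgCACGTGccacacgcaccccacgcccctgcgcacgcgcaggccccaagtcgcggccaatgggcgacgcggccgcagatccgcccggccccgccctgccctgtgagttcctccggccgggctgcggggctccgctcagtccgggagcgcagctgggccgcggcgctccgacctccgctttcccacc
DDIT4: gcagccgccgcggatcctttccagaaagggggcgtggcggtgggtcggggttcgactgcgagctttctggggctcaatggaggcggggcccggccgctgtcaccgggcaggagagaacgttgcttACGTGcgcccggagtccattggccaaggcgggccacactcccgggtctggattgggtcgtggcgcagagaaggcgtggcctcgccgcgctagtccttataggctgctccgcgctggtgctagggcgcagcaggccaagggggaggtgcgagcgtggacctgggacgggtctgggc
The element was present in 11 of the 21 list members with a promoter in the table (52.4%), and in 21.4% of all promoters in that table and 26.2% of those of tested genes. It was in 5 of the 10 promoters of members that fell. Such a match describes letters in a window and shows no binding.

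BNIP3, a mitophagy receptor, stood at 69.2 and 72.97 CPM in the controls and 43.6, 39.9 and 40.5 CPM with sgEZH2-1 (-0.78 ± 0.06 (SE; adjusted p = 2.41e-05)), with 78.8, 77.2 and 77.4 CPM with sgEZH2-2. DDIT4, an inhibitor of mTORC1, went from 758 and 652 CPM to 367, 370.4 and 359 CPM (-0.95 ± 0.06 (SE; adjusted p = 6.37e-06)), with 694, 734 and 706 CPM with sgEZH2-2. NDRG1, a stress-induced growth regulator, went from 291 and 299.8 CPM to 186, 163 and 169 CPM (-0.78 ± 0.06 (SE; adjusted p = 1.93e-05)). In all 3 genes the sgEZH2-1 libraries lay apart from the other 5. Their choice by adjusted p all but fixes the separation from the controls. Of all tested genes 24.2% lay below both controls, and the share below all 5 was not counted. CA9, a carbonic anhydrase of hypoxic cells, went from 13.6 and 11.9 CPM to 5.48, 4.65 and 5.88 CPM (-1.25 ± 0.16 (SE; adjusted p = 0.000425)), although 38.5% of its exonic length is shared with ARHGEF39. PFKFB4, which makes a glycolytic activator, fell by 0.88 on the log2 scale. LOX, the collagen cross-linking oxidase, was the 1 rise, from 2.84 and 3.26 CPM to 8.73, 8.41 and 8.68 CPM (1.49 ± 0.16 (SE; adjusted p = 0.000130)), and stood at 12.01, 9.91 and 9.84 CPM with sgEZH2-2. Of 18 glycolysis genes 8 fell and 1 rose, and without the first control 3 fell (3.97% of all tested genes did).

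The calls among mitotic genes were small rises. Of 39 genes of G2 and mitosis 16 rose (41.0%), 0 fell and 23 were not called, with a median log2 fold change of 0.19. With sgEZH2-2 none of the 39 was called, and in the direct comparison 21 were higher with sgEZH2-1 (background 10.4%) and 0 were lower. Promoters of mitotic genes are known to hold the cell cycle homology region, TTTGAA, which recruits MuvB complexes. It was found on either strand in 24 of 33 promoters (72.7%), against 15.2% of all promoters in the RefSeq table and 9.9% of those of tested genes. For the sterol list the SREBP element, searched as TCACNCCAC on either strand, was in 1 of 18 promoters (5.56%), and in 1.13% of all promoters. The element CCAAT was in 26 of the 33 mitotic promoters (78.8%), in 15 of the 18 sterol promoters (83.3%) and in 34.6% of all promoters. The windows of 3 members that rose are given with TTTGAA or its reverse complement in capitals (GRCh38.p14, plus strand: CDC20 at chr1:43358731-43359030, ECT2 at chr3:172750476-172750775, ANLN at chr7:36389612-36389911).
CDC20: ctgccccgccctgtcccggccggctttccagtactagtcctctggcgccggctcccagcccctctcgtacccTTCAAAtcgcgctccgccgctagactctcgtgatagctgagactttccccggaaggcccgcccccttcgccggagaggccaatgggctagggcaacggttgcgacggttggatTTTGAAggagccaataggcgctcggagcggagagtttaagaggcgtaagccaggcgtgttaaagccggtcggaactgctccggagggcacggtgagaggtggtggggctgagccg
ECT2: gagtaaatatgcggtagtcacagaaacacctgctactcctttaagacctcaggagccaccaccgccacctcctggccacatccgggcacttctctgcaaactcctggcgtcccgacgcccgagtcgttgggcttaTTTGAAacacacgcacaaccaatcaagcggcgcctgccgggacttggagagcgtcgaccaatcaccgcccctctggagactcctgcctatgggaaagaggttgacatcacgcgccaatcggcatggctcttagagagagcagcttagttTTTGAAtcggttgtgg
ANLN: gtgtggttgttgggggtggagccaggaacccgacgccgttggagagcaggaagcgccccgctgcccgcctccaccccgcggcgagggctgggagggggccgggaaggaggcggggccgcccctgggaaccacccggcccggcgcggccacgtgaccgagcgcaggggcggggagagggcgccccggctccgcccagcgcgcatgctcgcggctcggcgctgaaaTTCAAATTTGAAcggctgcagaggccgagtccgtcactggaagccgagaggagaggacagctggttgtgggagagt

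CDC20, which activates the anaphase-promoting complex, stood at 299 and 278 CPM in the controls and 336, 346 and 358 CPM with sgEZH2-1 (0.26 ± 0.05 (SE; adjusted p = 0.00502)), with 267, 269.9 and 276 CPM with sgEZH2-2. ANLN (anillin, of the cleavage furrow) went from 773 and 785 CPM to 946, 949.6 and 931 CPM (0.27 ± 0.04 (SE; adjusted p = 0.00149)). In both genes every sgEZH2-1 library lay above the other 5. Both were chosen by adjusted p, which all but fixes their separation from the controls. Of all tested genes 23.7% lay above both controls, and the share above all 5 was not counted. ECT2, an exchange factor for small GTPases in cytokinesis, went from 219.9 and 264 CPM to 331, 310.0 and 304 CPM (0.38 ± 0.09 (SE; adjusted p = 0.0110)), and its call was lost without the first control (0.26 (adjusted p = 0.107)). The calls of the kinase TTK and the kinesin CENPE were lost without the first control, and that of BUB1 without the second. Of the 39 genes 5 rose without the first control (6.33% of all tested genes did) and 9 without the second (11.2% of all). Of 39 genes of S phase and DNA replication 5 rose and 6 fell, and 11 were lower and 0 higher than with sgEZH2-2.

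**Figure D2:**
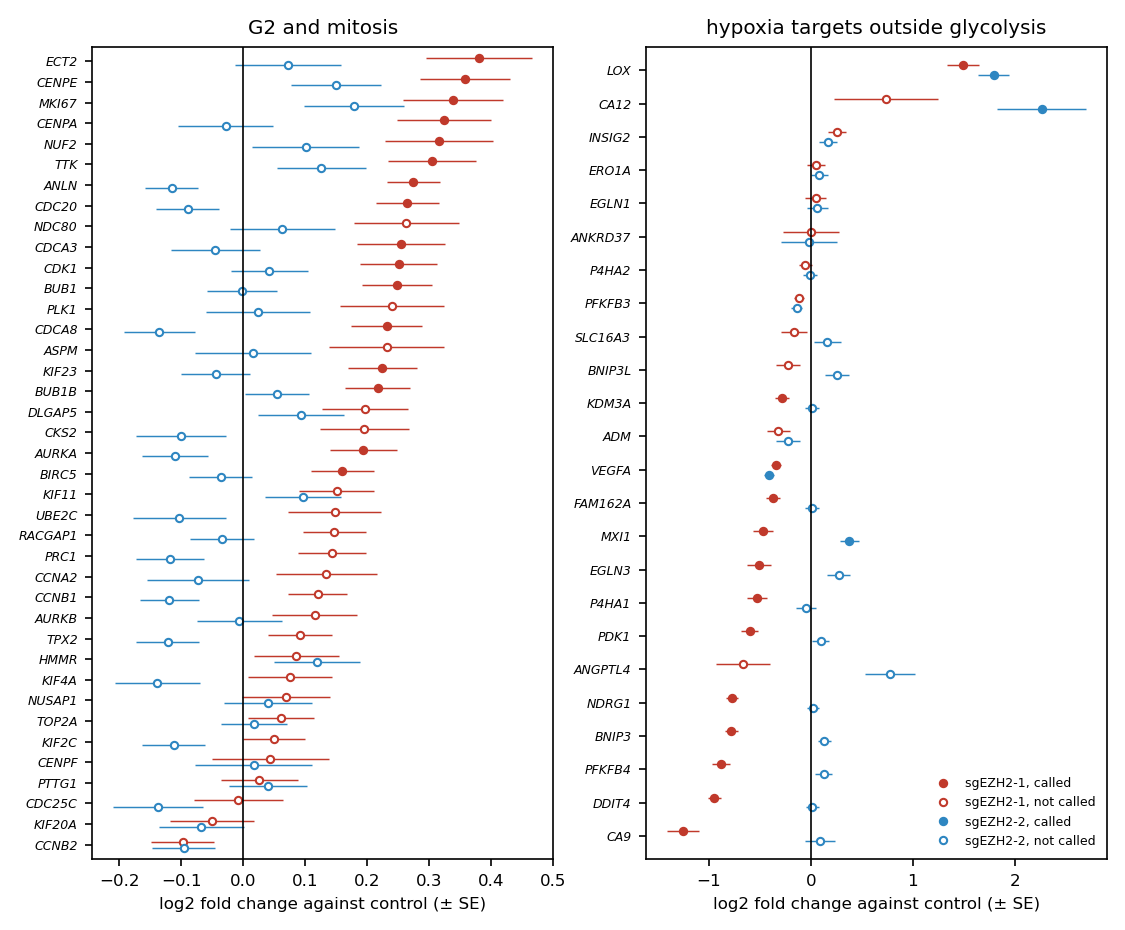
Log2 fold change against control with its SE for each tested member of the G2 and mitosis list and of the hypoxia list, with sgEZH2-1 in red, sgEZH2-2 in blue and filled points for adjusted p of at most 0.05. Both guides are compared with the same 2 controls, 16 mitotic genes are filled with sgEZH2-1 and none with sgEZH2-2, and 12 hypoxia genes are filled on the left for sgEZH2-1.

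The calls among keratins and epidermal proteases were mostly rises. Of 18 tested keratins 9 rose (50%) and 2 fell, and 0 rose with sgEZH2-2. KRT81, a hair keratin, went from 9.73 and 9.85 CPM to 57.7, 75.3 and 91.9 CPM (2.94 ± 0.18 (SE; adjusted p = 5.20e-06)), against 12.7, 13.1 and 13.8 CPM with sgEZH2-2. KRT80, a keratin of differentiating epithelia, went from 215 and 201 CPM to 397, 479 and 504 CPM (1.15 ± 0.09 (SE; adjusted p = 2.37e-05)), against 204, 203 and 217 CPM with sgEZH2-2. The wound keratin KRT16 rose from 6.82 and 5.67 CPM to 12.2, 13.3 and 14.1 CPM (1.09 ± 0.13 (SE; adjusted p = 0.000359)) and KRT17 from 82.5 and 71.7 CPM to 101, 149 and 157 CPM (0.82 ± 0.16 (SE; adjusted p = 0.00581)). KRT81 and KRT16 have near-identical relatives, so reads may be divided among them. Of 6 kallikreins, serine proteases that act in the shedding of the skin surface, 4 rose and 0 fell. KLK5 went from 4.19 and 4.24 CPM to 12.9, 12.9 and 13.7 CPM (1.64 ± 0.16 (SE; adjusted p = 9.84e-05)), KLK6 from 32.95 and 32.9 CPM to 63.6, 66.97 and 68.6 CPM (1.01 ± 0.07 (SE; adjusted p = 8.25e-06)), and KLK10 from 35.2 and 39.3 CPM to 58.8, 60.7 and 70.2 CPM (0.76 ± 0.10 (SE; adjusted p = 0.000641)). All 4 were higher with sgEZH2-1 than with sgEZH2-2, and the 4 calls held without any single library.

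Of 19 serpins 6 rose and 2 fell. SERPINB2, which inhibits plasminogen activators, went from 3.20 and 3.13 CPM to 9.81, 6.50 and 10.4 CPM (1.49 ± 0.22 (SE; adjusted p = 0.00115)). SERPINF1 fell by 0.96 on the log2 scale. Of 21 ADAM and ADAMTS proteases 8 rose (38.1%) and 0 fell. ADAM9 went from 159 and 172 CPM to 246, 232 and 253 CPM (0.56 ± 0.07 (SE; adjusted p = 0.000292)) and ADAM19 from 7.67 and 8.22 CPM to 15.99, 15.9 and 17.9 CPM (1.06 ± 0.12 (SE; adjusted p = 0.000228)). ADAM22 and ADAM23, members without protease activity, rose as well, ADAM22 from 0.355 and 0.456 CPM to 2.86, 3.49 and 3.71 CPM and ADAM23 from 0 and 0.261 CPM to 2.39, 3.01 and 2.94 CPM.

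**Figure D3:**
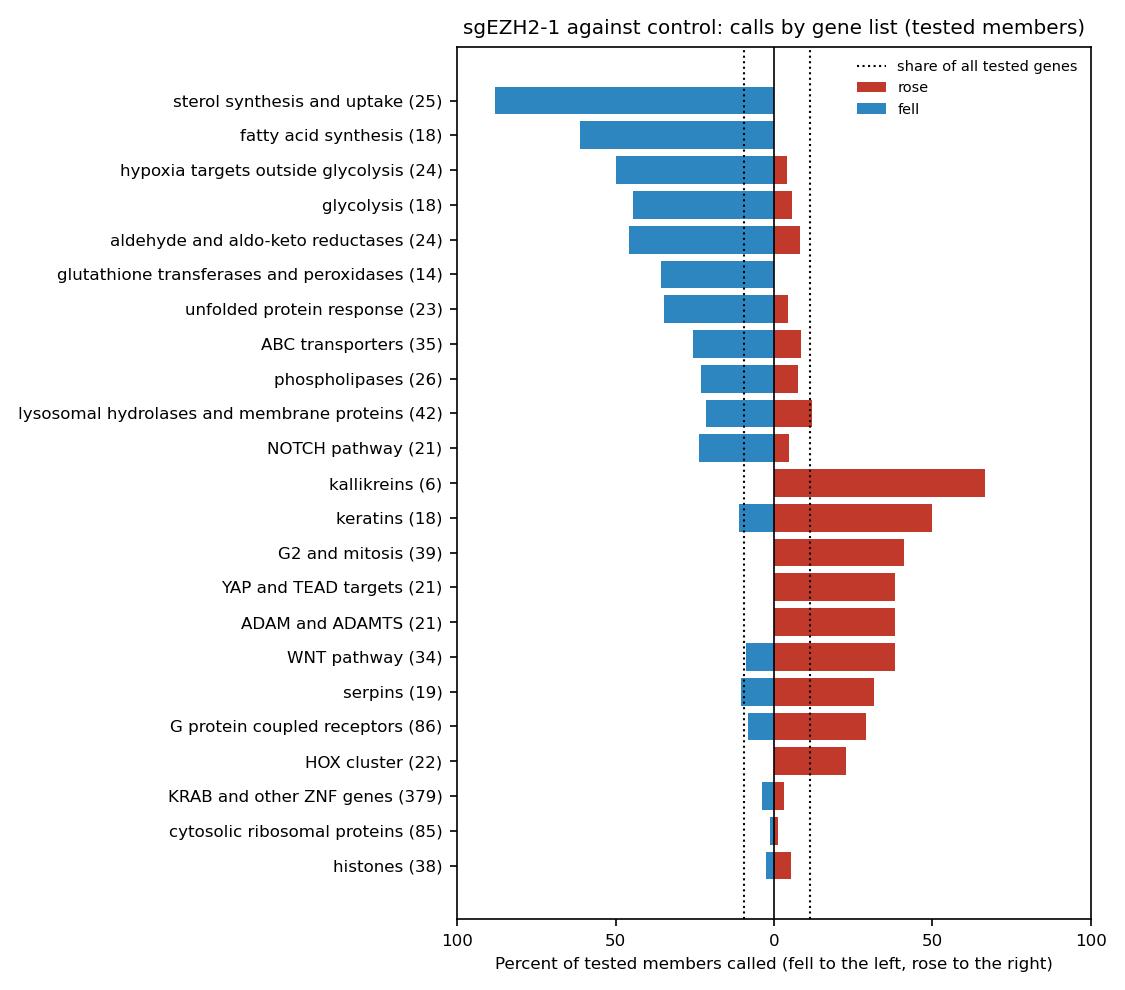
Percent of the tested members of 23 gene lists that rose (red, to the right) or fell (blue, to the left) with sgEZH2-1 against control, with the number tested in parentheses. Dotted lines mark the 11.3% and 9.51% of all tested genes that rose and fell; the sterol list reaches 88.0% on the left, and the zinc finger, ribosomal and histone lists stay inside the lines.

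YAP and TEAD are the factors by which the Hippo pathway acts on growth and matrix genes. Of 21 of their targets 8 rose (38.1%) and 0 fell, and 9 were higher and 1 lower than with sgEZH2-2. F3, tissue factor, went from 171 and 174 CPM to 374, 403 and 415 CPM (1.20 ± 0.08 (SE; adjusted p = 6.42e-06)), against 140.4, 118 and 137 CPM with sgEZH2-2. AXL, a receptor tyrosine kinase, went from 28.8 and 25.4 CPM to 57.2, 66.8 and 67.6 CPM (1.24 ± 0.09 (SE; adjusted p = 1.61e-05)), against 23.3, 23.4 and 24.2 CPM with sgEZH2-2. ANKRD1, an ankyrin repeat protein, went from 4.26 and 4.76 CPM to 9.42, 11.6 and 11.6 CPM (1.26 ± 0.19 (SE; adjusted p = 0.00120)). In all 3 genes the sgEZH2-1 libraries lay above the other 5. They were chosen by adjusted p, which all but fixes their separation from the controls. Of all tested genes 23.7% lay above both controls, and the share above all 5 was not counted. FSTL1, a secreted follistatin relative, rose by 0.86 on the log2 scale and WWC1, a Hippo regulator, by 0.71. The rise of TGFB2 (0.50 ± 0.10 (SE; adjusted p = 0.00741)) was lost without the first control (0.38 (adjusted p = 0.0706)).

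The calls among receptors that signal through G proteins were mostly rises. Of 86 tested receptors 25 rose (29.1%) and 7 fell (8.14%), and with sgEZH2-2 15 rose and 0 fell. GPRC5A, an orphan receptor of epithelia, went from 369.5 and 326 CPM to 490.3, 576 and 515 CPM (0.60 ± 0.08 (SE; adjusted p = 0.000541)). HTR1D, a serotonin receptor, went from 5.18 and 3.85 CPM to 10.3, 11.1 and 10.6 CPM (1.24 ± 0.15 (SE; adjusted p = 0.000359)), and ADGRF4, an adhesion receptor, from 13.6 and 16.04 CPM to 25.3, 27.02 and 25.3 CPM (0.80 ± 0.11 (SE; adjusted p = 0.000560)). These 3 were also higher than with sgEZH2-2. Of the 86 receptors 13 were higher than with sgEZH2-2 and 11 were lower (10.4% and 11.5% of all tested genes), with a median difference of 0.01. The adenosine receptor ADORA1 had no control count and stood at 1.16, 0.753 and 1.33 CPM, at least 10.6-fold higher against the floor of 3 counts over both controls. The fall of ADGRV1, a very large adhesion receptor, was -0.90 ± 0.16 (SE; adjusted p = 0.00297). Of 16 ephrins and Eph receptors 4 rose and 0 fell, of which EFNB2 went from 9.16 and 8.22 CPM to 15.6, 16.7 and 17.2 CPM (0.93 ± 0.11 (SE; adjusted p = 0.000392)).

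Lists of developmental genes differed in direction. Of 34 WNT pathway genes 13 rose (38.2%) and 3 fell. AXIN2, a feedback inhibitor of the pathway, went from 0.355 and 0.196 CPM to 2.63, 2.39 and 1.89 CPM (3.04 ± 0.37 (SE; adjusted p = 0.000389)), and DKK1, a secreted inhibitor, from 43.7 and 44.99 CPM to 70.98, 86.1 and 95.9 CPM (0.93 ± 0.12 (SE; adjusted p = 0.000577)). Of the receptors FZD10 rose by 2.21 on the log2 scale and FZD5 fell by 0.63. Of 21 NOTCH pathway genes 5 fell (23.8%) and 1 rose, and the falls of the ligand JAG2 (-0.64 ± 0.17 (SE; adjusted p = 0.0227)) and the ubiquitin ligase DTX4 (-0.29 ± 0.07 (SE; adjusted p = 0.0120)) were lost without the first control. Of 22 HOX genes 5 rose and 0 fell, of which HOXC13, a regulator of hair keratins, went from 6.96 and 6.91 CPM to 11.5, 14.1 and 15.8 CPM (1.00 ± 0.15 (SE; adjusted p = 0.000995)). Of 19 KLF and SP factors 5 rose and 0 fell. KLF4, a factor of epidermal barrier formation, went from 17.7 and 19.3 CPM to 32.2, 34.3 and 35.3 CPM (0.88 ± 0.09 (SE; adjusted p = 0.000139)), and KLF9 from 1.21 and 1.11 CPM to 5.87, 3.28 and 5.60 CPM (2.07 ± 0.29 (SE; adjusted p = 0.000774)). Of 27 forkhead factors 4 rose (14.8%) and 2 fell, and of 8 SOX factors 2 rose and 2 fell. The falls of SOX2 and SOX7 were lost without the second sgEZH2-1 library, among others, and the rise of SOX4 without either control. Of 20 mesenchymal genes 12 rose and 1 fell. Outside development, of 65 glycosyltransferases 17 rose (26.2%) and 9 fell, with GALNT10, an initiator of O-glycans, at 5.47 and 5.54 CPM in the controls and 27.1, 24.7 and 23.7 CPM with the guide (2.19 ± 0.11 (SE; adjusted p = 1.41e-06)).

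Several large families stayed near or below the background. Of 379 zinc finger genes 12 rose (3.17%) and 14 fell (3.69%), of 85 cytosolic ribosomal proteins 1 rose and 1 fell, and of 38 histones 2 rose and 1 fell. Of 38 proteasome genes 3 rose and 0 fell, although 19 were higher than with sgEZH2-2. Of 82 nuclear genes of oxidative phosphorylation 0 rose and 12 fell (14.6%), with a median log2 fold change of -0.13, and 5 were lower than with sgEZH2-2. Of 25 p53 targets 1 rose and 1 fell.

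The direct comparison of the guides, which does not use the controls in its contrast, called 1363 genes higher with sgEZH2-1 (10.4%) and 1511 lower (11.5%). Of the 1478 rises 663 (44.9%) were also higher than with sgEZH2-2, and of the 1248 falls 763 (61.1%) were also lower. Of the 72 falls of at least 2-fold 62 (86.1%) were lower than with sgEZH2-2, against 173 of the 532 large rises (32.5%). Both contrasts share the sgEZH2-1 libraries, so these shares are a description. Against the same controls, sgEZH2-2 raised 811 genes (6.18%) and lowered 328 (2.5%). These calls took in 578 of the 1478 rises and 132 of the 1248 falls, each in the same direction as with sgEZH2-1. For changes of at least 2-fold they took in 371 of the 532 rises and 8 of the 72 falls. The 532 large rises had a median log2 fold change of 1.57 with sgEZH2-2. Both guides were compared with the same controls, so this overlap is a description as well.

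Under the conditions on level and separation given above, the largest excess over sgEZH2-2 among genes that rose was, after KRT81, of CPA4, a secreted carboxypeptidase. It stood at 9.45 and 7.43 CPM in the controls, 21.1, 21.7 and 23.8 CPM with sgEZH2-1 and 4.07, 3.85 and 3.97 CPM with sgEZH2-2, a difference of the guides of 2.48 ± 0.12 (SE; adjusted p = 2.98e-06). ANXA3, an annexin, stood at 21.02 and 23.4, 65.03, 68.3 and 71.00 and 15.9, 12.6 and 18.5 CPM in that order of groups (2.12 ± 0.11 (SE; adjusted p = 3.59e-06)). SCEL, a precursor of the cornified envelope, was higher by 1.55 on the log2 scale, the xenobiotic oxidase CYP1A1 by 1.57, and MACC1, a gene linked to metastasis, by 1.34. The placental alkaline phosphatase gene ALPP was higher by 1.90, with near-identical relatives that make its count uncertain. Among genes that fell, the values relative to sgEZH2-2 were -2.36 for MMP10, -1.82 for CP, -1.77 for CEL and -1.47 for ALDOC. PTPRZ1, a receptor phosphatase, stood at 107 and 108 CPM in the controls, 79.7, 51.7 and 55.7 CPM with sgEZH2-1 and 145, 144 and 148 CPM with sgEZH2-2 (-1.23 ± 0.13 (SE; adjusted p = 0.000183)). Its first sgEZH2-1 library lay nearest to the controls.

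A smaller set moved in opposite directions. With the guides called apart from each other and each from the controls, 25 genes rose with sgEZH2-1 and fell with sgEZH2-2, and 21 fell with sgEZH2-1 and rose with sgEZH2-2. FST, the activin inhibitor follistatin, stood at 36.01 and 37.4 CPM in the controls, 69.6, 74.98 and 76.9 CPM with sgEZH2-1 and 21.95, 18.2 and 19.1 CPM with sgEZH2-2. CDH2, the neural cadherin, stood at 26.3 and 23.6, 34.8, 34.3 and 34.9 and 12.8, 12.6 and 13.8 CPM in the same order. H6PD, a dehydrogenase of the endoplasmic reticulum, stood at 62.1 and 60.8, 45.6, 41.9 and 43.4 and 74.2, 86.5 and 78.8 CPM. In each of the 3 genes the control values lay between the guides, with no overlap of the groups. They were chosen for their opposite calls, which all but fixes such a separation. The activin subunit gene INHBB, in contrast, rose with sgEZH2-1 (1.66 ± 0.13 (SE; adjusted p = 1.83e-05)) and stood at 0.35 with sgEZH2-2 (adjusted p = 0.149).

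**Figure D4:**
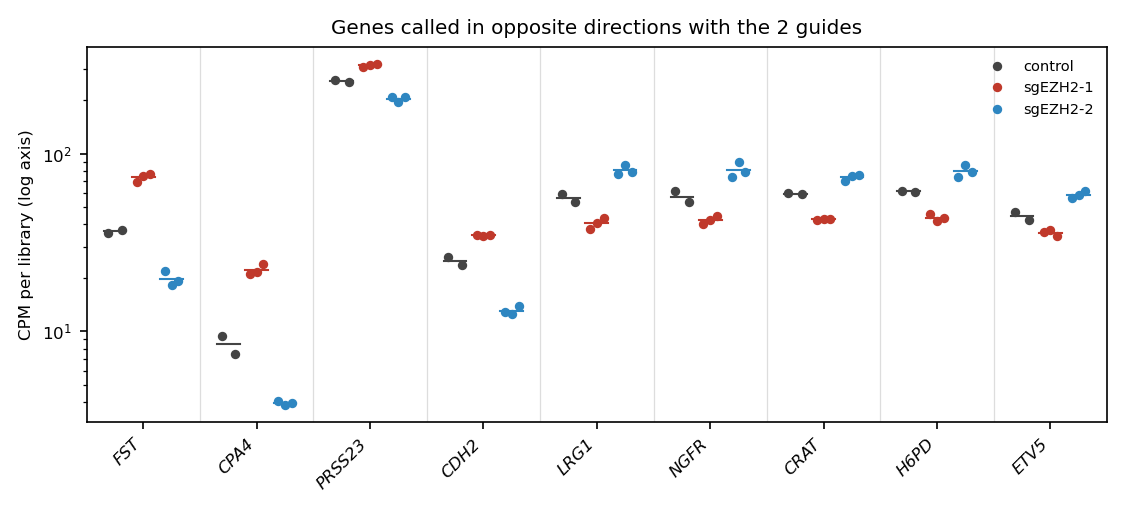
Level in CPM on a log axis of 9 genes called in opposite directions with the 2 guides, 1 point per library and a bar at each group mean, with control in grey, sgEZH2-1 in red and sgEZH2-2 in blue. The control points lie between those of the guides in every gene shown, with FST at 36.0 and 37.4 CPM in the controls against 69.6 to 76.9 and 18.2 to 21.95 CPM.

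By position, rises and falls were spread over all chromosomes with unequal shares. Of 630 tested genes on chromosome 16, 28 rose (4.44%) and 91 fell (14.4%), and of 919 on chromosome 19, 42 rose (4.57%) and 71 fell (7.73%). Of 215 on chromosome 13, 41 rose (19.1%) and 11 fell (5.12%), and of 578 on chromosome 5, 93 rose (16.1%) and 32 fell (5.54%). The median log2 fold change ran from -0.09 on chromosome 16 to 0.08 on chromosome 13. In windows of 10 Mb with at least 15 tested genes it ran from -0.15 to 0.28.

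Calls also varied with the GC content of transcripts (GENCODE release 29). In the quintile of genes with the lowest GC content, at a median of 38.8%, 377 of 2616 genes rose (14.4%) and 89 fell (3.402%), with a median log2 fold change of 0.11. In the quintile with the highest, at a median of 61.9%, 175 rose (6.69%) and 269 fell (10.3%), with a median of -0.10. The libraries themselves differed along GC content: from the lowest to the highest quintile the median deviation moved by 0.23 and -0.12 (log2) in the controls and by -0.37, -0.07 and 0.01 with sgEZH2-1. The first control and the first sgEZH2-1 library stood at opposite ends of these 5, and the part of this in the calls by chromosome was not tested. With a GC term for each library, a setting chosen after seeing the data, 2274 genes rose (17.3% of tested genes) and 1608 fell (12.3%). Under that setting 22 sterol genes and 14 hypoxia genes fell, and 21 mitotic genes rose.

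**Figure D5:**
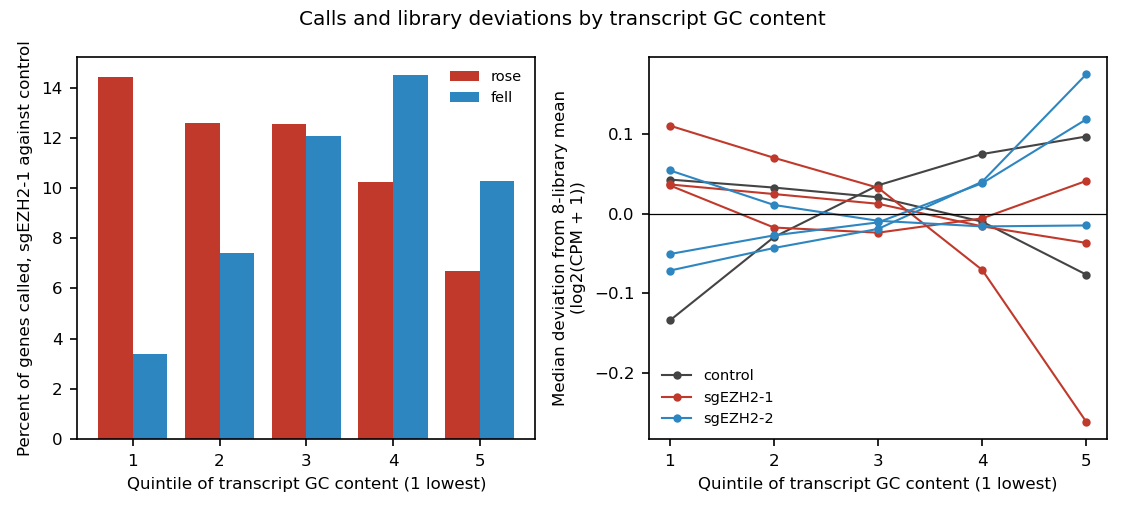
Left: percent of genes that rose or fell with sgEZH2-1 in each quintile of tested genes by transcript GC content. Right: median deviation of each library from the mean of all 8 libraries in log2(CPM + 1), 1 line per library; the first sgEZH2-1 library ends at -0.26 and the first control at 0.10 in the quintile with the highest GC content.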

How the data were processed

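Poly(A) RNA of 8 libraries was prepared with a stranded kit, per the labels' protocols, and the authors deposited whole-number read counts per gene with no normalization. FastQC, STAR and DESeq with build hg38 are named, per the submitters' processing notes, whereas tool versions, the counting program and its use of strand were not stated. The table held 20294 genes, 0 unused columns and group names without replicate numbers. Libraries held 12.6 M to 15.5 M counts. The functions filterByExpr (minimum count 10), TMM and glmQLFTest of edgeR 4.0.16 (R 4.3.3) were run on all 8 libraries in 3 groups, two-sided, with Benjamini-Hochberg adjustment at 0.05. The model was tested on simulated data. Replicates differed by more than counting noise. Alternatives used DESeq2 1.42.0 and limma 3.58.1. GENCODE release 29 matched 19873 genes by symbol and 306 by a renamed identifier, while 115 were not matched. RefSeq promoters (GRCh38.p14) matched 80.1% of tested genes and 77.1% of those that rose, and promoter composition of the rises was not compared. Of the lists with motif shares, 72% of the sterol, 87.5% of the hypoxia and 84.6% of the mitotic genes had a promoter. The sterol shares thus leave out more genes than the other shares do.

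Members and lists were chosen with earlier results of these data known. Named genes were PRC2 subunits, the 20 largest rises and falls and the 10 largest changes of CPM (mean normalized count of at least 100, all guide libraries on one side of both controls), the 15 largest differences of the guides each way, up to 6 members of each described list by adjusted p, the 5 clearest opposite calls each way, and the 5 highest genes with no control count. Some genes that these rules name are not reported here. Bounds use a floor of 3 counts over both controls.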

Additional observations from a re-analysis of the deposited data

Results flagged for a closer look

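The 2 guides gave calls of opposite sign against the same controls in the genes below, and the genes also differed in the direct test of the guides (edgeR's quasi-likelihood test). They are among those with the strongest evidence by the largest adjusted p over each guide's contrast with control and the contrast of the guides. Higher with sgEZH2-1 were FST (follistatin), by 1.90 on the log2 scale, CPA4 (a carboxypeptidase) by 2.48, PRSS23 (a serine protease) by 0.63 and CDH2 (neural cadherin) by 1.41. PRSS23 shares 11.9% of its exonic length with FZD4. The adjusted p of these 4 differences ran from 2.78e-06 for FST to 1.47e-05 for PRSS23. Lower with sgEZH2-1 were LRG1, at -0.99 relative to sgEZH2-2, NGFR (the p75 neurotrophin receptor) at -0.93, CRAT (carnitine acetyltransferase) at -0.79, H6PD at -0.87 and ETV5 (an ETS factor) at -0.71. Of these, the fall of NGFR against control was -0.33 (adjusted p = 0.106) and that of ETV5 -0.24 (adjusted p = 0.132) without the first control. All 3 sgEZH2-1 libraries lay on one side of both controls, and all 3 sgEZH2-2 libraries on the other, in each of the 9 genes. The choice of called genes all but fixes this, since 1477 of the 1478 rises and 1247 of the 1248 falls did not overlap the controls. Of all tested genes 23.7% lay above both controls with sgEZH2-1 and 24.2% below.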

How the results depend on the processing

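Leaving out any single library, whether a control or a library of either guide, moved the number of calls more than another scaling did. With sgEZH2-1 against control, 2682 to 2732 genes were called under DESeq2 size factors and upper quartile scaling, 2318 by DESeq2's own test and 2708 by limma-voom, against 2726. Fitting only the 2 groups compared lowered the falls to 766. A GC term for each library, chosen after seeing the data, raised the rises to 2274, the genes higher than with sgEZH2-2 to 2073 and the calls with sgEZH2-2 to 1955. A fold of at least 2 left 604 calls. Medians of whole chromosomes spanned 0.17 (log2), against 0.43 for windows.

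Leaving out single libraries gave 1373 to 2591 calls for sgEZH2-1 against control (844 to 1492 rises and 529 to 1145 falls), the fewest without the first control. A control left alone is then assumed to vary like the other groups. Between the guides it gave 1521 to 2995 calls (692 to 1469 higher and 829 to 1536 lower), and 521 to 1365 for sgEZH2-2 against control. Lists at 2 times the background numbered 50 to 64. Of 374 called named genes, 270 kept the call without any single library and none changed sign. The sign of some uncalled PRC2 genes did change. The log2 fold change of AEBP2 was 0.0012 with only the 2 groups compared and -0.094 to 0.089 without single libraries, against -0.0082. That of PHF1 was 0.0698 with the GC term and -0.075 to 0.017 without single libraries, against -0.037. Without single libraries LCOR ran from -0.017 to 0.253 and PHF19 from -0.0016 to 0.142. The cause was not tested. No paired analysis was possible because the columns of the count table carry no replicate numbers.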
